A study of Mus musculus with 15 samples.

Results

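Polycomb repressive complexes keep developmental and cell cycle inhibitor genes silent by marking histones. Polycomb repressive complex 2 (PRC2) methylates lysine 27 of histone H3 through *Ezh2* or its relative *Ezh1*, held together by *Eed* and *Suz12*, and *Jarid2* helps to bring it to chromatin. Polycomb repressive complex 1 (PRC1) reads that mark through chromodomain proteins such as *Cbx2* and *Cbx7* and attaches ubiquitin to histone H2A through *Ring1* or *Rnf2*, each paired with a partner such as *Bmi1*. SWI/SNF chromatin remodelers, one form of which (PBAF) contains the *Pbrm1* product, are known to counteract Polycomb at many genes, and *PBRM1* is often mutated in clear cell renal cell carcinoma (RCC). The transcripts of these 10 subunits, chosen by gene symbol, were followed among the 18279 genes of the table, and all 10 were detected in every tumor.

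The RNA came from 15 subcutaneous tumors of Renca, a mouse RCC line of BALB/c origin, grown in female BALB/c mice that were bought at 4 to 6 weeks of age. The 5 control tumors (numbers 1 to 5) carry a source label of parental Renca cells but a series title of control knockout cells. The paper also describes the 5 control samples of its RNA sequencing as control knockout. The conflict with the source label was not settled here. The *Pbrm1* knockout tumors came from clone 4 (tumors 6 to 10) and clone 18 (tumors 11 to 15), each a sorted single clone made with transiently transfected CRISPR/Cas9 and repair plasmids, the latter carrying puromycin resistance and red fluorescent protein. The protocol covers mice left untreated and mice given PD-1 antibody, and does not say which gave these tumors. Each group is 1 cell line, so a difference between genotypes cannot be told apart from a difference between lines. For a clone against control, p-values measure the spread between tumors within lines. The pooled knockout test treats the 10 tumors of both clones as separate samples with no term for the clone, so its p-values do not measure the spread between knockout lines. The host cells inside a tumor still carried *Pbrm1*, and in bulk RNA fewer cells of a type and less RNA per cell cannot be told apart.

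Values are normalized counts, that is, reads per gene divided by a size factor for each tumor, and 32924414 to 49099168 reads per tumor fell on genes. *Pbrm1* was measured at 7451.5 to 9870.6 in control and 2483.8 to 3137.5 in knockout tumors, a log2 difference of -1.69 ± 0.07 (SE, limma adjusted p = 2.94e-11). Of 7 renal epithelial markers, *Krt8*, *Krt18*, *Cdh1*, *Cdh16* and *Pax8* were abundant in all groups, while *Epcam* averaged 160 to 422 and *Pax2* 129 to 173. Host cells were present too. The 5 skeletal muscle markers summed to 555.3 to 1528.7 in tumors 9, 10, 11, 14 and 15, against 51.8 to 154.4 in the other 10 tumors, none of the 5 markers being at 0 throughout. The 4 measured B cell markers summed to 359.8 to 494.1 in control, 173.8 to 266.7 in clone 4 and 99.7 to 256.3 in clone 18, and the 5 macrophage markers to 56352.3 to 69678.4, 45558.2 to 60936.4 and 43990.6 to 57995.8. Among the B cell markers the mean of *Cd79a* was 171 in control and 1.80 in knockout tumors, and that of *Cd79b* 65.1 and 30.6. *Ms4a1* (11.7 and 12.4) and *Cd22* (163 and 143) did not pass. Sums of 23 cell cycle genes overlapped between the groups, at 176211.7 to 206467.6 in control, 177277.4 to 211684.3 in clone 4 and 164517.1 to 214365.4 in clone 18.

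Among the 10 subunits, *Suz12* was the one that fell in the pooled 10 knockout tumors. It encodes the scaffold on which PRC2 assembles. In control tumors 1 to 5 its normalized counts were 3873.8, 5278.3, 4262.9, 3688.8 and 4656.4. In clone 4 tumors 6 to 10 they were 3280.6, 3687.6, 3784.8, 3629.5 and 4176.2, and in clone 18 tumors 11 to 15 they were 3106.4, 3092, 3110.1, 3268.7 and 3070.8. All 5 clone 18 tumors lay below every control tumor and every clone 4 tumor, as for 9.82% of all genes against control and 2.88% against clone 4. Clone 4 overlapped the control, with 3 of its 5 tumors below every control tumor. The means were 4352 ± 638 (SD, n = 5) in control, 3712 ± 322 (n = 5) in clone 4 and 3130 ± 79.3 (n = 5) in clone 18.

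On the scale of log2(normalized count + 1), *Suz12* fell by 0.34 ± 0.09 (SE) in the knockout tumors (95% interval -0.53 to -0.16, limma adjusted p = 0.00947), to 78.6% of the control mean. In clone 18 alone it fell by 0.46 ± 0.08 (interval -0.64 to -0.28, limma adjusted p = 0.000805). In clone 4 alone the difference was -0.22 ± 0.08 (interval -0.40 to -0.04) and did not pass (limma adjusted p = 0.0851). It passed there when control tumor 4 was left out (-0.28, limma adjusted p = 0.0333) or when clone 4 tumor 10 was (-0.27, limma adjusted p = 0.0445). Both clones were compared with the same 5 control tumors. The log2 difference of clone 18 from clone 4 was -0.24 ± 0.08 (interval -0.42 to -0.06), with no overlap between their tumors, and did not pass over all genes (limma adjusted p = 0.124). B cell marker sums were below every control tumor in both clones, with *Cd79a* and *Cd79b* past the threshold but *Ms4a1* and *Cd22* not. The part of these markers in the *Suz12* values was not tested. Without the 5 tumors rich in muscle transcripts the *Suz12* difference of the knockout tumors was -0.35 (limma adjusted p = 0.0293) and that of clone 18 was -0.48 (limma adjusted p = 0.021). *Suz12* shares exon sequence with *Gm26563*, a noncoding RNA gene on the opposite strand that is not among the genes measured. The strand setting of the counting is not given in the sources used here, which leaves the reads of the overlap uncertain.

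**Figure D1:**
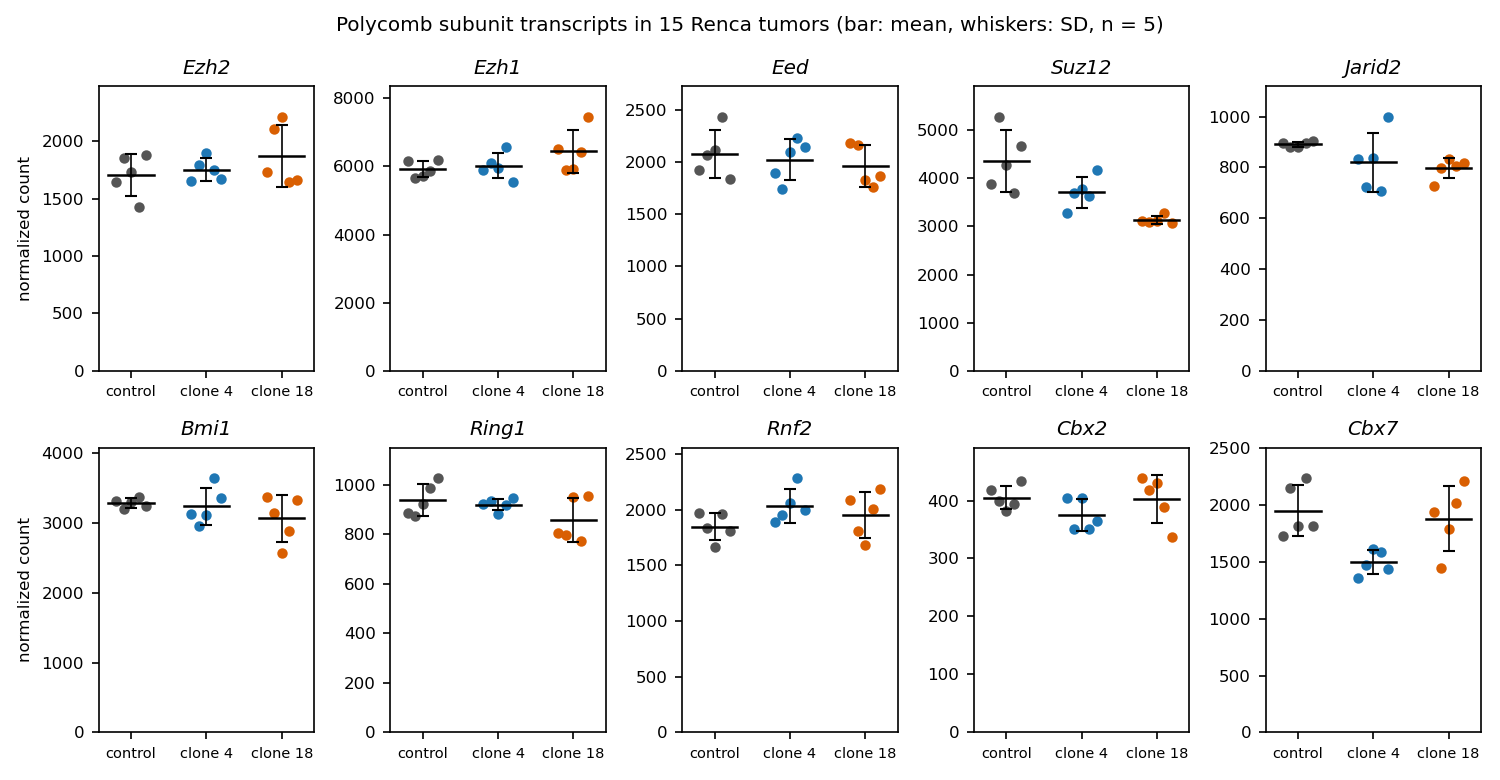
Normalized counts of the 10 Polycomb subunits in control, clone 4 and clone 18 tumors, 1 point per tumor, with axes from 0, the horizontal bar at the mean and whiskers of 1 SD (n = 5 per group). *Suz12* in clone 18 (3070.8 to 3268.7) and *Cbx7* in clone 4 (1361.6 to 1614.4) lay below every control tumor, as did *Jarid2* in clone 18 (728.6 to 835.1), and in the other 7 panels both knockout groups overlapped the control.

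*Cbx7* was the other subunit with a difference past the threshold, in clone 4. Its product is a chromodomain reader through which PRC1 binds methylated histone H3. The normalized counts were 1731.5, 2146.4, 1817.5, 2237.7 and 1818.6 in control tumors 1 to 5. They were 1361.6, 1469.7, 1614.4, 1589.5 and 1441.5 in clone 4 tumors 6 to 10, all below every control tumor, as for 8.20% of all genes. In clone 18 tumors 11 to 15 they were 1934.9, 1449.4, 1786.7, 2019.8 and 2211, which spanned most of the control range. *Cbx7* fell in clone 4 by 0.38 ± 0.10 (SE) on the log2 scale (interval -0.59 to -0.16, limma adjusted p = 0.0163), to 76.7% of the control mean. In clone 18 the difference was -0.06 ± 0.10 (interval -0.27 to 0.16, limma adjusted p = 0.726), and over both clones it was -0.22 ± 0.11 (interval -0.45 to 0.01, limma adjusted p = 0.169).

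The difference in *Cbx7* between clone 18 and clone 4 was 0.32 ± 0.10 (interval 0.10 to 0.53) and did not pass over all genes (limma adjusted p = 0.0867). It passed with DESeq2 (0.34, adjusted p = 0.0392) and, in limma, when clone 18 tumor 12 was left out (0.41, adjusted p = 0.014). Muscle transcripts moved with *Cbx7* within clone 18, where the 3 muscle-rich tumors held 1934.9 to 2211 and the other 2 tumors 1449.4 and 1786.7. In clone 4 they did not, with the 2 muscle-rich tumors at 1441.5 and 1589.5, inside the range of the other 3 (1361.6 to 1614.4). Without the 5 muscle-rich tumors *Cbx7* was lower in the remaining knockout tumors by limma (-0.34, adjusted p = 0.0265), its difference in clone 18 was -0.27 (limma adjusted p = 0.153) and the difference between the clones was 0.12 (limma adjusted p = 0.68). *Cbx7* shares exon sequence with *Apobec3*, a cytidine deaminase gene on the opposite strand, and the strand setting of the counting is not given in the sources used here, so reads of the overlap could have been counted for either or neither. *Apobec3* ranged from 1430.7 to 1822.3 over the 15 tumors, with a log2 difference of 0.15 in clone 4 that did not pass (limma adjusted p = 0.142).

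The sequences just upstream of *Suz12* and *Cbx7* are shown because these were the subunits whose transcripts fell. Both are the 250 bases before the RefSeq start on GRCm38.p6, the *Suz12* one at chr11:79992856-79993105 on the plus strand and the *Cbx7* one at chr15:79932647-79932896 on the minus strand, written 5′ to 3′. Capitals mark an E2F-type motif, the letters bound by factors that drive genes of the dividing cell.
Suz12: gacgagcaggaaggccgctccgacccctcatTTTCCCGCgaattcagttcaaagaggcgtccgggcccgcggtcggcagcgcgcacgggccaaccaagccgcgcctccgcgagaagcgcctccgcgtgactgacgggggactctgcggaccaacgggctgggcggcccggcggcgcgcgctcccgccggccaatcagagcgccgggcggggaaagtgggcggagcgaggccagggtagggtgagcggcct
Cbx7: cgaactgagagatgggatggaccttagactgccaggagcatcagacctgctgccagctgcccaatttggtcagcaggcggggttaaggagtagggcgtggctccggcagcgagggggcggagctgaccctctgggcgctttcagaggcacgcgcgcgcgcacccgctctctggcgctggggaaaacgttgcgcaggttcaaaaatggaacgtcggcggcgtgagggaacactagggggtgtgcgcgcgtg
Of the 10 members 9 were matched in RefSeq, all but *Cbx2*. Motifs TTTGGCGC, TTTCGCGC and TTTCCCGC were searched on both strands. The *Suz12* window held TTTCCCGC, starting 219 bases before the start, and none of the 3 motifs lay in the windows of the other 8 matched members. Of all 32851 promoter windows of this length, 504 (1.53%) held a match. The member windows were rich in CpG, with 12 to 37 CpG dinucleotides against a median of 6 over all windows, and *Suz12* had the most at 37, with 73.6% G and C. *Suz12* (ENSMUSG00000017548) spans positions 79993106 to 80034123 of chromosome 11 and *Cbx7* (ENSMUSG00000053411) positions 79915807 to 79971119 of chromosome 15 in GENCODE M21 on GRCm38, and the outermost *Cbx7* start of GENCODE lies upstream of the RefSeq start used here. Of 15 genes with a mean of at least 10 within 500 kb of *Suz12*, 2 passed as higher and 1 as lower in knockout tumors. Their median log2 difference was 0.02, and of all genes 9.23% passed as higher and 12.9% as lower. Of 24 such genes within 500 kb of *Cbx7*, 1 passed as higher and 4 as lower in clone 4, where 10.0% of all genes passed as lower. Their median was 0.02.

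Counted over all 10 subunits, 1 (*Suz12*) passed in the knockout against control comparison, where 22.1% of the 18250 genes tested passed in either direction and 12.9% passed as lower. In clone 4 against control 1 member (*Cbx7*) passed, against 16.8% of genes in either direction and 10.0% as lower. In clone 18 against control 1 member (*Suz12*) passed, against 24.7% and 14.2%. Between clone 18 and clone 4 none of the 10 passed in limma, against 4.62% of genes, although 2 (*Suz12* and *Cbx7*) had an unadjusted p under 0.05, and edgeR called 0 and DESeq2 called 1. The members' counts were near or below these backgrounds. The median log2 difference of the members was -0.06 in the knockout tumors, beside -0.02 for all genes, and the median size of the difference was 0.08, beside 0.20 for all genes. The latter include genes with few reads, 16494 of the 18250 having a mean of at least 10, while each member had 301 reads or more. The 2 sizes are therefore not matched for level. The 9 members that did not pass in the knockout comparison had 95% intervals within -0.45 and 0.26 on the log2 scale, or 0.733 to 1.197 of the control level. Changes smaller than these bounds were not resolved. The bounds hold for the pooled mean of the 10 tumors and not for each clone. *Cbx7*, 1 of these 9, had an interval down to -0.59 in clone 4 alone.

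**Figure D2:**
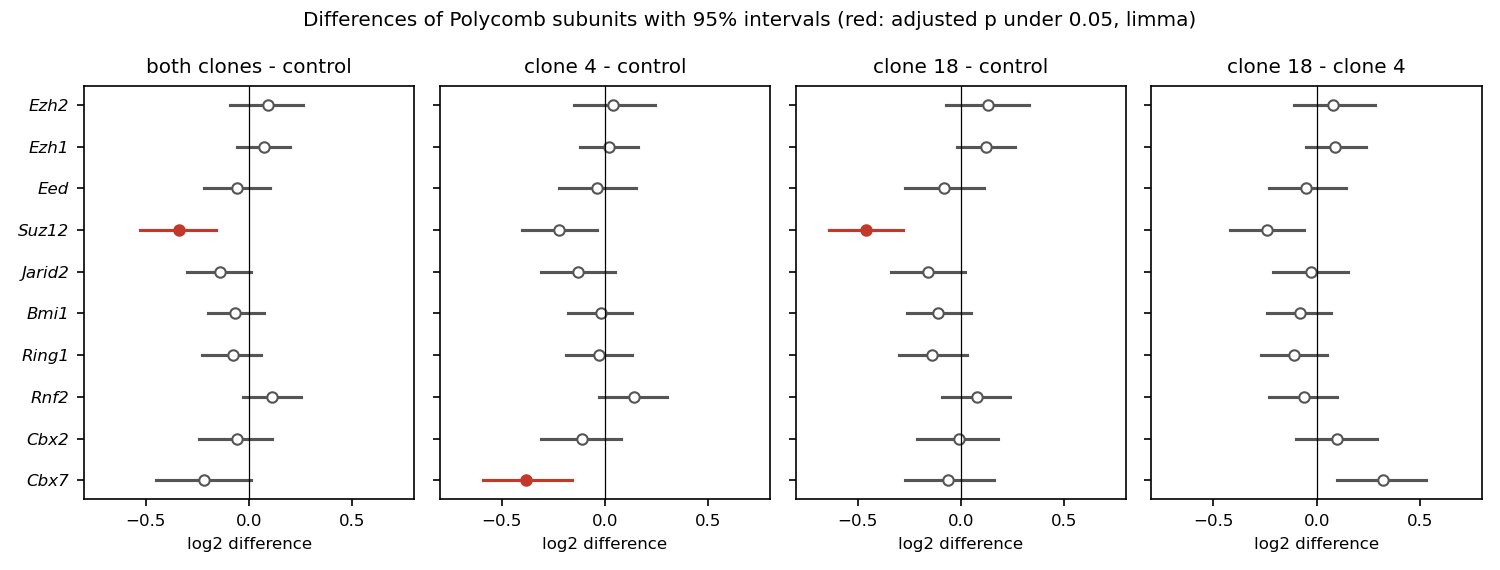
Log2 differences of the 10 subunits with 95% intervals in the 4 comparisons, in limma fits of log2(normalized count + 1), with filled red points for adjusted p under 0.05. *Suz12* passed for both clones together and for clone 18, *Cbx7* for clone 4, and no member passed between the clones.

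The methyltransferases of PRC2 did not pass in any of the 4 comparisons. *Ezh2*, the form typical of dividing cells, was at 1644.4, 1848.7, 1732.2, 1424.2 and 1876.7 in control tumors and at 1651.9, 1791.7, 1897.9, 1746.5 and 1672.1 in clone 4. In clone 18 tumors 11 to 15 it was at 1728.7, 2108.9, 2213.5, 1645.9 and 1656.9. Tumors 12 and 13 were thus above all other 13 tumors and the remaining 3 of the clone were within the control range. The log2 difference was 0.09 ± 0.08 in the knockout tumors (interval -0.09 to 0.26, limma adjusted p = 0.5) and 0.13 ± 0.09 in clone 18 (interval -0.07 to 0.33, limma adjusted p = 0.352). *Ezh2* shares exon sequence with *Gm26625*, a noncoding RNA gene on the opposite strand that is not among the genes measured. *Ezh1*, the form typical of resting cells, ranged from 5665.9 to 6192.7 in control, 5547.5 to 6579.8 in clone 4 and 5905.9 to 7459.4 in clone 18. Its log2 difference was 0.07 ± 0.06 in the knockout tumors (interval -0.06 to 0.20, limma adjusted p = 0.456).

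Within clone 18 the 2 methyltransferases went opposite ways across tumors. The 3 tumors rich in muscle transcripts held *Ezh2* at 1645.9 to 1728.7 and *Ezh1* at 6425.1 to 7459.4, while tumors 12 and 13 held *Ezh2* at 2108.9 and 2213.5 and *Ezh1* at 5905.9 and 5910. *Rnf2* followed *Ezh1*, at 2009.7 to 2185.3 in the 3 tumors and at 1805 and 1682 in the other 2. In clone 4 the 2 muscle-rich tumors showed no such split in these genes, with *Ezh2* at 1672.1 and 1746.5 inside the range of the other 3 (1651.9 to 1897.9). Other members did split in clone 4. The 2 muscle-rich tumors held *Bmi1* at 3349.7 and 3640.9, above the other 3 (2956.6 to 3123.4). They held *Eed* at 2146.6 and 2230.1, also above the other 3 (1740.1 to 2098.8). In clone 18 both of these genes overlapped. Left out, these 5 tumors changed 1 call in clone 18 against control, since *Ezh2* was then higher by 0.35 (limma adjusted p = 0.0444) and *Ezh1* differed by -0.0021 (limma adjusted p = 0.988), with 2 clone 18 tumors remaining. The tumors were divided by muscle transcripts after their values were seen, and the part of host muscle in these levels was not tested.

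**Figure D3:**
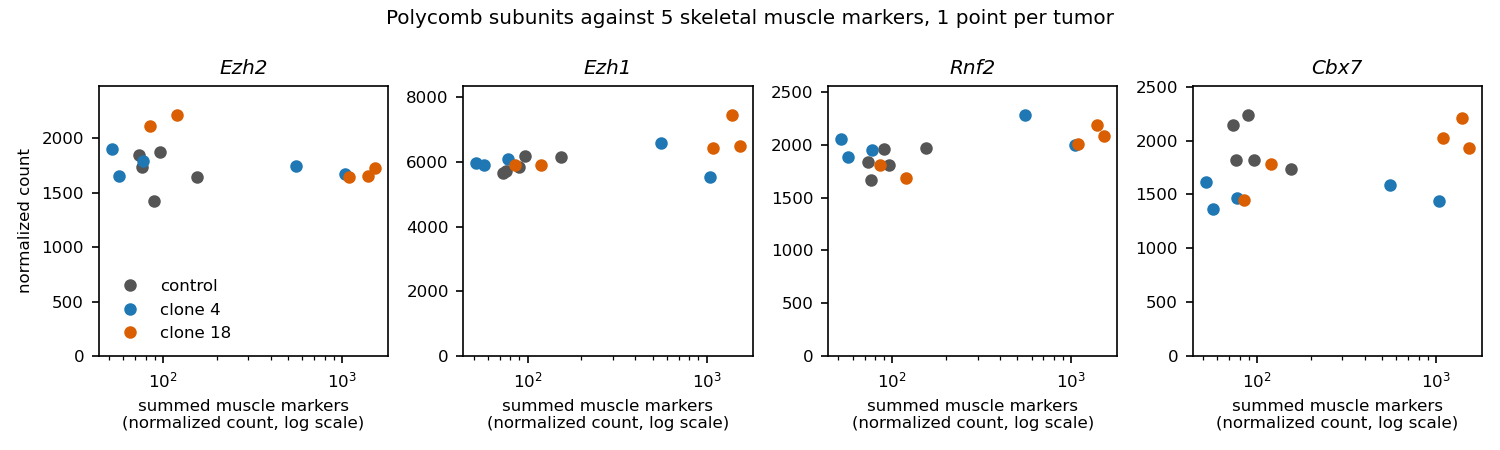
Normalized counts of *Ezh2*, *Ezh1*, *Rnf2* and *Cbx7* (y axis, from 0) against the summed normalized count of the 5 skeletal muscle markers (x axis, log scale), 1 point per tumor, colored by group. In clone 18 the 3 tumors with sums above 1000 had lower *Ezh2* and higher *Ezh1*, *Rnf2* and *Cbx7* than the 2 with sums of 84.9 and 119.1.

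The remaining PRC2 members showed small differences. *Jarid2*, a cofactor without catalytic activity that guides PRC2, was at 894.8, 879, 880, 895.3 and 903 in control tumors, with an SD of 10.5. That spread of 1.18% was below the 3.40% that counting of the reads alone gives. It was at 833.2, 724.3, 835.5, 707.7 and 1000.3 in clone 4 and at 728.6, 799.8, 835.1, 804.9 and 819.5 in clone 18. Of the 10 knockout tumors 9 were below every control tumor and clone 4 tumor 10 was above every one. The log2 difference was -0.14 ± 0.07 (interval -0.30 to 0.01) and did not pass (limma adjusted p = 0.173), but it did without clone 4 tumor 10 (-0.18, limma adjusted p = 0.0454). In clone 18 the groups did not overlap, as for 9.82% of all genes in that direction, and limma gave -0.16 ± 0.08 (adjusted p = 0.183). *Eed*, whose product binds the methylated histone, ranged from 1840.8 to 2433.8 in control and 1740.1 to 2230.1 in knockout tumors, with a log2 difference of -0.06 ± 0.08 (interval -0.22 to 0.10, limma adjusted p = 0.653). It shares exon sequence with *E230029C05Rik* on the opposite strand, which was measured at 61.6 to 164.9.

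In PRC1 the ubiquitin ligases and their partner overlapped between all groups. *Rnf2* (Ring1B) ranged from 1667.3 to 1969.4 in control, 1885.3 to 2283.5 in clone 4 and 1682 to 2185.3 in clone 18, with a log2 difference of 0.11 ± 0.07 in the knockout tumors (interval -0.03 to 0.25, limma adjusted p = 0.286). *Rnf2* shares exon sequence with *Trmt1l* on the opposite strand, whose log2 difference was 0.28 in clone 18 (limma adjusted p = 0.0509), and the unknown strand setting leaves the reads of the overlap uncertain here too. *Ring1* (Ring1A) ranged from 872.8 to 1027.7 in control, 883.3 to 945.8 in clone 4 and 773.8 to 953.8 in clone 18, with a difference of -0.08 ± 0.07 (interval -0.23 to 0.06, limma adjusted p = 0.451). *Bmi1*, the ring finger partner known for repressing *Cdkn2a*, ranged from 3201.5 to 3370.5 in control and 2573.4 to 3640.9 in knockout tumors, with a difference of -0.07 ± 0.07 (interval -0.20 to 0.07, limma adjusted p = 0.523). Its spread was wider in the knockout tumors, with a coefficient of variation of 9.50% against 2.01%, the latter close to the counting error of 1.77%. *Cbx2*, the other chromodomain reader, ranged from 382.1 to 433.5 in control and 337 to 438.8 in knockout tumors, with a difference of -0.06 ± 0.08 (interval -0.24 to 0.11, limma adjusted p = 0.645).

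Divided by the kilobases of annotated exon, so that genes could be compared, the subunits fell into 4 tiers over the 15 tumors. *Ezh1* (823 ± 64.1 normalized counts per kb, SD), *Bmi1* (804 ± 63.1) and *Suz12* (755 ± 130) formed the top, and their ranges overlapped. *Eed* (527 ± 52.2) and *Rnf2* (471 ± 41.6) came next, *Eed* overlapping *Suz12* at the edge. *Ring1* (279 ± 21.8), *Cbx7* (274 ± 44.7) and *Ezh2* (266 ± 29.3) could not be ordered, and *Cbx2* (92.6 ± 7.51) and *Jarid2* (86.1 ± 8.03) were lowest. *Rnf2* was above *Ring1*, and *Ezh2* above *Cbx2*, in every tumor. *Ezh1* exceeded *Ezh2* per kb by 3.15 ± 0.377 times in control, 3.09 ± 0.215 in clone 4 and 3.17 ± 0.697 in clone 18, a ratio of 3.13 over all tumors that was 2.31 with the length of the longest transcript. The ratio of *Suz12* to *Ezh2* per kb was 3.44 ± 0.257 in control (3.18 to 3.86), 2.87 ± 0.288 in clone 4 (2.68 to 3.37) and 2.30 ± 0.342 in clone 18 (1.90 to 2.68). With the longest transcript it was 1.62 ± 0.121, 1.35 ± 0.136 and 1.08 ± 0.161, the last ranging from 0.895 to 1.27. In clone 18 the mean of *Suz12* per kb was thus above that of *Ezh2* by either length (633 against 280, and 716 against 671). By the longest transcript this did not hold in every clone 18 tumor. With the longest transcript as length, *Eed* (977 per kb) came next after *Ezh1* (1456) and *Ezh2* (637) lay just above *Rnf2* (608). Levels per kb depend on which exons a tumor uses, which the table does not show.

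**Figure D4:**
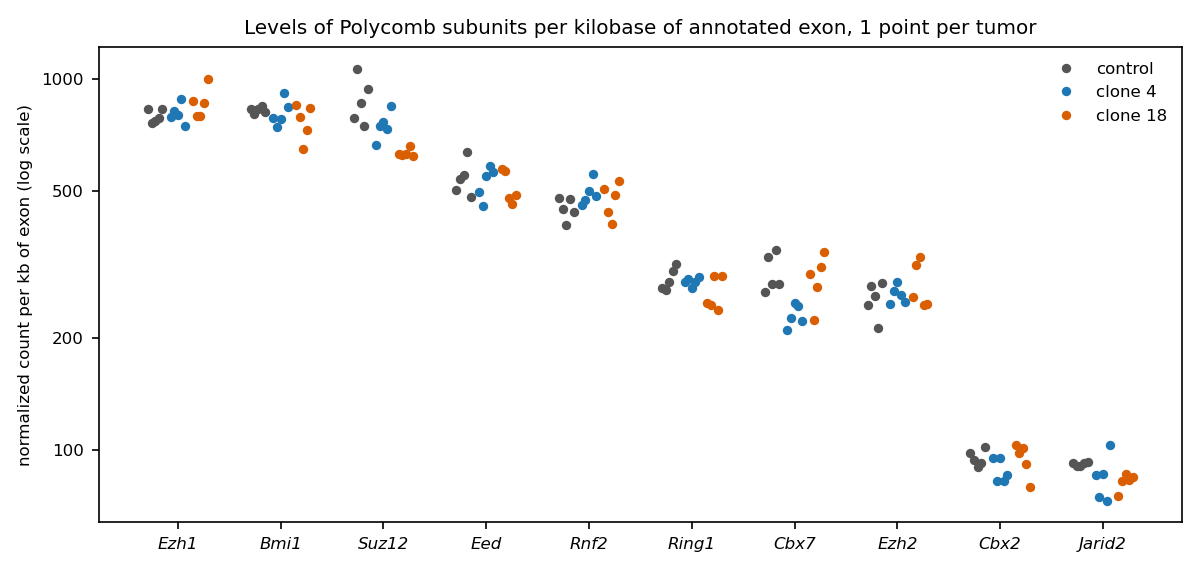
Normalized count per kilobase of annotated exon (y axis, log scale) for the 10 subunits in order of their mean, 1 point per tumor, colored by group. The means ran from 823 for *Ezh1* to 86.1 for *Jarid2*, and *Suz12* in clone 18 lay below *Suz12* in the other tumors.

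Across tumors, with the group means removed, the subunits did not vary as 1 block. Over 15 tumors the median Pearson r of the 45 member pairs was -0.10. The highest values were 0.76 for *Ezh1* and *Rnf2* and 0.72 for *Bmi1* and *Rnf2*, and the lowest was -0.63 for *Ezh2* and *Rnf2*, given as descriptions since tumors share library, depth and host content. Of 12156 genes with a mean of at least 100, those most like *Ezh2* were *Slc35c1* (r = 0.85), *Lman2l* (0.81), *Prr11* (0.79), *Ctdspl* (0.78) and *Foxm1* (0.77), the last a transcription factor of dividing cells. Those most like *Cbx7* were *Nsmce2* (0.92), *Csnk1e* (0.90), *Nat9* (0.89), *Arsg* (0.89) and *Got1* (0.88). With the group means kept, 2 of the 5 genes named for *Ezh2* stayed among the 5 highest, *Slc35c1* and *Lman2l*, while *Foxm1* did not. For *Cbx7* 0 of the 5 stayed. How high r would run by chance among 12156 genes over 15 tumors was not tested.

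The wider Polycomb machinery, regulators that it represses and cell cycle genes were read from 7 lists that do not hold the members. In knockout against control 8 of the 90 genes measured rose and 3 fell, or 12.2%. Of all genes 22.1% passed, 9.23% as higher and 12.9% as lower. Of the 9 other PRC2 subunits 0 passed in this comparison in limma, edgeR or DESeq2. In limma 3 had an unadjusted p under 0.05, the histone binders *Rbbp4* (-0.12) and *Rbbp7* (-0.14) and the cofactor *Lcor* (-0.20). In clone 4 against control 0 of the 9 passed in limma. In clone 18 against control 3 did (33.3%, beside 24.7% of all genes), *Phf1* and *Lcorl* as higher and *Mtf2* as lower. Of the 9 other canonical PRC1 subunits 1 passed in knockout against control (11.1%), *Phc1*, a polyhomeotic protein that clusters PRC1. It rose by 0.32 ± 0.08 (limma adjusted p = 0.00826), above every control in 8 of 10 tumors. In clone 18 against control *Phc1* and *Scmh1* passed, the latter as lower. Of the 15 variant PRC1 subunits 3 passed. *Pcgf1*, the ring finger partner of the variant complex with *Kdm2b*, rose by 0.44 ± 0.10 (limma adjusted p = 0.00344). *Yaf2*, a stimulator of the ligase, rose by 0.33 ± 0.05 (limma adjusted p = 0.000239) and was above every control in all 10 knockout tumors, as for 3.11% of all genes. *Usp7*, a deubiquitinase found with these complexes, fell by 0.42 ± 0.07 (limma adjusted p = 0.000438), below every control in all 10, as for 4.87% of all genes.

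PR-DUB, the complex around *Bap1* and *Asxl1* that removes the ubiquitin set by PRC1, had 4 of its 10 measured genes past the threshold in knockout against control. That is 40.0%, beside 22.1% of all genes, and whether so short a list differs from that share was not tested. *Foxk2* (0.25 ± 0.06, limma adjusted p = 0.00651), *Mbd5* (0.21 ± 0.06, limma adjusted p = 0.0233) and *Kdm1b* (0.29 ± 0.07, limma adjusted p = 0.00612) rose and *Foxk1*, a forkhead factor like *Foxk2*, fell by 0.47 ± 0.11 (limma adjusted p = 0.00726). These 4 are partner proteins and hold no ubiquitin protease. Neither H3K27 demethylase, *Kdm6a* or *Kdm6b*, passed in limma, edgeR or DESeq2, with 0 at an unadjusted limma p under 0.05. Of 47 regulators that Polycomb represses in stem cells, *Cdkn2a* and *Cdkn2b* included, 22 were in the table and 1 passed (4.55%, beside 22.1% of all genes). It was *Wnt6*, a secreted signal, which rose by 0.59 ± 0.10 (limma adjusted p = 0.000485) from a mean of 421 to 633. Of 23 cell cycle genes 2 passed, or 8.70%. *Ccnb2* rose by 0.25 ± 0.09 (limma adjusted p = 0.047) and *Rrm1* fell by 0.27 ± 0.06 (limma adjusted p = 0.00562). Without the 5 muscle-rich tumors *Foxk1* (-0.40, limma adjusted p = 0.0584) and *Rrm1* (-0.22, limma adjusted p = 0.0606) no longer passed, with fewer tumors compared, and *Mcm2* (0.20, limma adjusted p = 0.033) and *Rrm2* (0.31, limma adjusted p = 0.0206) did.

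The clones differed from each other in 4 of these 90 genes, 4.44% beside 4.62% of all genes, named here after their values were seen. Without the 5 muscle-rich tumors, which leaves 3 and 2 tumors, limma called 0 of the 90, with 16 at an unadjusted p under 0.05. *Phf1*, a PRC2 cofactor that binds methylated histone H3, was higher in clone 18 than in clone 4 by 0.47 (limma adjusted p = 0.0122), at a mean of 939 against 670. *Cdkn2b*, a cell cycle inhibitor beside *Cdkn2a*, was higher by 0.51 (limma adjusted p = 0.00093), at 1468 against 1028, the control mean being 1419. *Gata4* was lower by 1.28 (27.8 against 64.5, limma adjusted p = 0.0238) and *Foxf1* by 0.25 (2618 against 3116, limma adjusted p = 0.022), both transcription factors of development. In clone 18 against control *Cdkn2a* rose by 0.40 ± 0.09 (limma adjusted p = 0.00339). *Bmi1*, its known repressor, differed there by -0.11 ± 0.07 (limma adjusted p = 0.32).

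**Figure D5:**
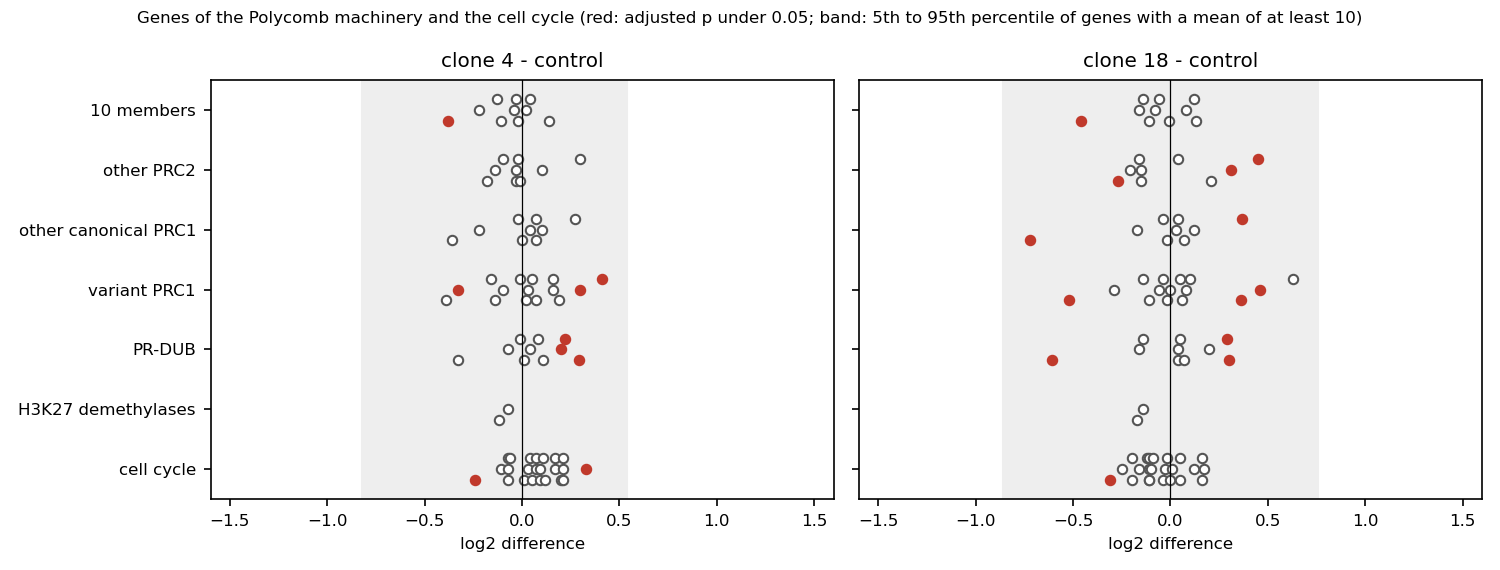
Log2 differences of the 10 members, of 5 lists of Polycomb genes and of the cell cycle list in clone 4 (left) and clone 18 (right) against control, 1 point per gene, red for adjusted p under 0.05. The grey band is the 5th to 95th percentile of genes with a mean of at least 10, and all 10 members lie inside it.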

How the data were processed

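Bulk RNA sequencing of 15 tumors was analyzed from 1 table of 18279 genes, in which each column was assigned to a tumor by its title. The authors used TopHat2 on mm10 for alignment, HTSeq for gene counts and DESeq size factors for scaling, so the deposited values are a signal of normalized counts, rounded to 0.1. Versions, annotation, strand setting and gene filter are not given in the sources used here. At least 99.7% of the values up to 8000 in each tumor were whole multiples of 1 step (within the rounding), which gave back reads for edgeR 4.0.16 and DESeq2 1.42.0. Depth was 32924414 to 49099168 reads per tumor, with no molecular identifiers, so read numbers cover counting error only. No pair of tumors within a group agreed within sampling noise.

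The 18250 genes not at 0 in every tumor were tested as log2(normalized count + 1) by limma 3.58.1 with trend in R 4.3.3, 10 knockout against 5 control tumors, and in a fit with 1 term for each of the 3 groups. P values were adjusted by Benjamini-Hochberg at 0.05 over all genes, and intervals are unadjusted. Scripts were tested on simulated data. Alternatives were pseudocounts of 0.1 and 5, a minimum mean of 10, upper quartile and quantile scaling, limma without trend, edgeR, DESeq2, each tumor left out in turn, and tumors with muscle marker sums over 300 left out, the last chosen after seeing the data. Per kb levels used exon lengths of GENCODE M21 (GRCm38), with the longest transcript as alternative. Promoters came from RefSeq GRCm38.p6. The members and lists were chosen with earlier results of these data known. The rule for named genes took all members, *Pbrm1*, up to 4 genes per list with the largest differences past the threshold in knockout against control, and the genes most like *Ezh2* and *Cbx7*. Marker lists covered T cells, B cells, macrophages, neutrophils, endothelium, fibroblasts, skeletal muscle and renal epithelium. In knockout against control 2 of 5 T cell, 2 of 4 B cell, 3 of 5 macrophage, 1 of 4 neutrophil and 2 of 7 renal epithelial markers passed in limma. Of all genes 22.1% passed there. Of 5 endothelial and 5 fibroblast markers 0 passed in limma, edgeR or DESeq2, with 0 at an unadjusted limma p under 0.05, and of 5 skeletal muscle markers 0 passed in limma (2 unadjusted), 4 in edgeR and 4 in DESeq2. Figures were drawn with matplotlib 3.10.9.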

Additional observations from a re-analysis of the deposited data

Results flagged for a closer look

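In 3 of 90 groups of 5 tumors, over 30 genes, 1 tumor stood far from the other 4 by Dixon's ratio, where chance would set apart about 1 in 20, or 4.5. *Suz12* in clone 18 tumor 14 was 3268.7, beside 3070.8 to 3110.1 in the other 4 tumors. *Scmh1*, a PRC1 subunit, was 120.6 in clone 18 tumor 12, beside 65.4 to 80.6. *Cdkn2a* was 5898.4 in control tumor 4, beside 4982.1 to 5219.3.

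For 4 genes the difference from control differed between the clones by the limma test of clone 18 against clone 4. The log2 differences were 0.47 for *Phf1* (adjusted p = 0.0122), 0.51 for *Cdkn2b* (adjusted p = 0.00093), -1.28 for *Gata4* (adjusted p = 0.0238) and -0.25 for *Foxf1* (adjusted p = 0.022).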

How the results depend on the processing

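*Suz12* passed in knockout and in clone 18 against control, and *Cbx7* in clone 4, under each alternative and with each tumor left out. The ranges with 1 tumor left out were -0.40 to -0.27 (highest adjusted p 0.0377), -0.52 to -0.39 and -0.42 to -0.33 (highest adjusted p 0.0474). With 1 tumor left out, the number of members called went from 1 to 2 in knockout (*Jarid2* without clone 4 tumor 10) and in clone 4 (*Suz12* without control tumor 4 or clone 4 tumor 10), and from 0 to 1 between the clones. It was 2 in clone 18 with quantile normalization (*Ezh1*, 0.17, limma adjusted p = 0.0455), 1 between the clones with DESeq2, and 2 in knockout and in clone 18 without the 5 muscle-rich tumors. The cause was not tested.

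Genes called between the clones numbered 844, against 1354 with DESeq2 and 307 without the muscle-rich tumors, which leaves fewer tumors. List genes called there went from 4 to 8 with DESeq2, 0 without the muscle-rich tumors, and 2 (without clone 4 tumor 6) to 7 (without clone 4 tumor 10) with 1 tumor left out. In clone 4 against control they ranged from 6 (without clone 4 tumor 6) to 11. The ratio of *Ezh1* to *Ezh2* per kb was 2.31 with the longest transcript. With group means kept, 2 genes most like *Ezh2* and 0 most like *Cbx7* were shared.

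Log2 differences near 0 changed sign, none of them past the threshold. With 1 tumor left out, *Eed* ranged from -0.10 to 0.0016 in knockout. In clone 4 the ranges were -0.02 to 0.08 for *Ezh2*, -0.01 to 0.05 for *Ezh1*, -0.08 to 0.02 for *Eed*, -0.07 to 0.01 for *Bmi1* and -0.05 to 0.01 for *Ring1*. In clone 18 they were -0.05 to 0.05 for *Cbx2* and -0.12 to 0.03 for *Cbx7*, and between the clones -0.08 to 0.04 for *Jarid2*. *Cbx2* in clone 18 was 0.03 with upper quartile scaling, 0.05 with quantile normalization, 0.02 with edgeR and 0.0021 with DESeq2. Without the muscle-rich tumors, clone 18 gave -0.0021 for *Ezh1*, -0.08 for *Rnf2* and 0.07 for *Cbx2*, and clone 18 against clone 4 gave -0.02 for *Ezh1*, 0.06 for *Eed* and 0.04 for *Jarid2*.

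No paired analysis was possible because tumor numbers 1 to 15 are not shared between groups. No scaling moved the median of all genes by over 0.1. Each member had 301 reads or more in each tumor. The spread between tumors was at most 1.5 times the counting error in 7 of 30 groups of 5 tumors, among them *Suz12* in clone 18 (2.53% against 1.91%) and *Cbx2* in control (5.05% against 5.04%), and below it for *Jarid2* in control and *Ring1* in clone 4 (2.56% against 3.35%).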

Other observations

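*Ring1* lies in the major histocompatibility region of chromosome 17. Of 44 genes with a mean of at least 10 within 500 kb of it, 10 passed as lower and 0 as higher in knockout against control. Of all genes 12.9% passed there as lower and 9.23% as higher. The other 34 did not pass. The median log2 difference in the window was -0.15, beside -0.01 for the 754 genes of the chromosome, and *Ring1* differed by -0.08 ± 0.07 (limma adjusted p = 0.451). In clone 4 against control 6 passed as lower and 0 as higher, with a median of -0.09, and in clone 18 the counts were 9 and 2, with a median of -0.20. Some immune markers moved in the same tumors. In knockout against control *Cd79a*, *Cd79b*, *Cd3d*, *Cd3g*, *Csf1r*, *Mrc1* and *Csf3r* fell and *Cd14* rose. *Cd3e*, *Cd247*, *Lck*, *Ms4a1*, *Cd22*, *Adgre1*, *Cd68*, *S100a8*, *S100a9* and *Cxcr2* did not pass. T cell marker sums overlapped between the groups, at 460.7 to 1094.4 in control, 526.3 to 738.6 in clone 4 and 508.2 to 606.2 in clone 18. The part of immune cells in the window was not tested. The window was picked after its values were seen. Around *Ezh1* 7 of 41 genes passed as higher and 2 as lower, and around *Ezh2* 4 of 14 as higher and 0 as lower, to be read against the same shares of all genes, and neither member passed.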
